A study of Mus musculus with 12 samples.

Results

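After 6 days of tamoxifen, mouse embryonic stem cells that had lost Thap11 were compared with cells that still carried it. Thap11 encodes Ronin, a zinc finger protein of the THAP family. The comparison rests on the arrays labelled knockout on day 6 and control on day 6, 2 of each, which are 4 of the 12 arrays of the series. In all cells both Ronin alleles were flanked by loxP sites (Ronin flox/flox). Only the knockout cells had CreERT2, the Cre enzyme fused to an estrogen receptor domain, which cuts once tamoxifen is given. Both kinds of cells were plated at 100000 cells for each 10 cm2, were given tamoxifen at 0.25 µM and were replated on day 4. The other arrays came from the same 2 genotypes on days 1.5 and 3. Since the groups differ in CreERT2, an effect of the enzyme itself, a difference between the lines and the loss of Thap11 cannot be told apart. Nothing in the labels ties replicate arrays to separate cultures, so all p-values reflect only array-to-array spread, which may be technical.

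Ronin binds DNA at a sequence element in promoters that the zinc finger protein ZNF143 also recognises, and it works together with the coactivator HCF-1. In embryonic stem cells it is known for supporting self-renewal, and many genes with the element serve mitochondria, protein synthesis and metabolism.

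Levels are given as RMA intensities of 1 probe set per gene, and differences as log2 of knockout over control with the standard error (SE) of the limma fit over all 12 arrays. A gene is said to have risen or fallen where its p-value, adjusted over the 18194 genes tested by the Benjamini-Hochberg method, was below 0.05. The 2 arrays of a group correlated across genes with r = 0.99834 in controls and r = 0.99856 in knockout cells. Markers of embryonic stem cells were bright in both groups. Pou5f1, the gene of the pluripotency factor Oct4, read 11248 and 11629 on the control arrays and 12562 and 12601 on the knockout arrays. Of the 8 markers used for this check only Klf4 passed the threshold (-0.44 ± 0.047 SE), and their summed intensity was 71146 to 71271 in controls and 72656 to 73072 in knockout cells, with 24144 to 25028 on single arrays from Dppa5a. Markers of fibroblasts or feeder cells summed to 8620 to 9024 in controls and 9756 to 9852 in knockout cells, with 3 of 23 higher and 6 lower. In such bulk RNA, a change in the share of a cell type and a change of RNA within cells cannot be told apart.

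Of the 18194 genes, 5906 changed, or 32.5%. Of these, 3129 rose (17.2%) and 2777 fell (15.3%). Most changes were small, with a median log2 difference of 0.40 among genes that rose and -0.37 among those that fell. At least 2-fold changes were fewer, with 266 genes up (1.46%) and 187 down (1.03%). Changes of at least 4-fold ran the other way, with 26 genes up (0.143%) and 37 down (0.203%). Genes that rose at least 2-fold started from a median control intensity of 102.6, close to the 114 of all genes. Genes that fell at least 2-fold started from 277.

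**Figure D1:**
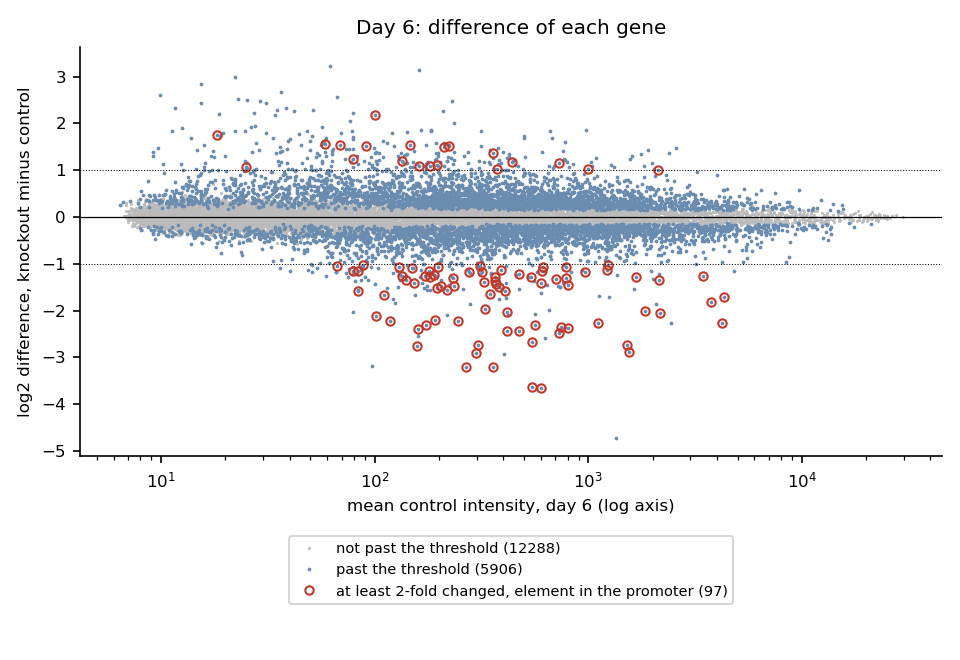
Log2 difference between knockout and control arrays of day 6 (y axis) against mean control intensity on a log axis (x axis) for 18194 genes, with grey for genes not past the threshold and blue for the 5906 past it. Red rings mark the 97 genes changed at least 2-fold whose RefSeq promoter holds the Ronin and ZNF143 element, most of which lie below -1, and dotted lines stand at a 2-fold change.

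Thap11 had the largest difference of all genes tested. Its probe set read 1305 and 1382 on the control arrays and 50.6 and 51.5 on the knockout arrays (log2 difference -4.72 ± 0.083 SE, limma adjusted p = 1.4e-08). The position of the probe set relative to the loxP sites was not analysed here.

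Several of the next largest falls, leaving out genes named by a clone number, are described here. Mmachc, whose product processes vitamin B12 for its enzymes, read 605 and 598 in controls and 51.1 and 44.1 in knockout cells (-3.66 ± 0.079). The ubiquitin-conjugating enzyme gene Ube2d1 read 345 and 370.3 in controls and 42.7 and 35.5 in knockout cells (-3.20 ± 0.088). Ctu1 encodes a subunit of the enzyme that adds sulphur to the wobble base of some tRNAs. It read 299 and 298 in controls against 39.1 and 40.8 in knockout cells (-2.90 ± 0.070). For each of these genes all control arrays lay far above all knockout arrays. The largest falls were chosen among genes whose arrays do not overlap, which were 65.1% of all genes tested.

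Gtf2h4, which encodes a subunit of the transcription and repair factor TFIIH, went from 1575 and 1464 to 216 and 239 (-2.74 ± 0.074). Its probe set is of a kind that can share probes with other transcripts, written as shared probes from here on, and 2 of its 3 other probe sets fell as well. Genes that act in or control the breakdown of branched-chain amino acids were also among the 20 largest falls. Acad8, an acyl-CoA dehydrogenase of valine breakdown, went from 309 and 298 to 40.6 and 51.1 (-2.74 ± 0.097). Bckdk, the kinase that switches off the branched-chain keto acid dehydrogenase, went from 778 and 829 to 157 and 151 (-2.38 ± 0.073).

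Mitochondrial genes among the 20 largest falls also included Cbr4, a reductase of mitochondrial fatty acid synthesis (-2.66 ± 0.070), and Clpb, which pulls apart protein aggregates (-2.48 ± 0.079). The nuclear lamina gene Lmnb2 fell by 2.59 and Iqgap3, a scaffold protein of the cytoskeleton, by 2.44. The zinc finger gene Zfp418 fell by 2.75, Map2k6, a kinase that activates p38, by 2.40 (shared probes) and Npl, which splits sialic acid, by 2.35. Iftap, at -3.63 ± 0.076, is less certain, since none of its other 3 probe sets passed.

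**Figure D2:**
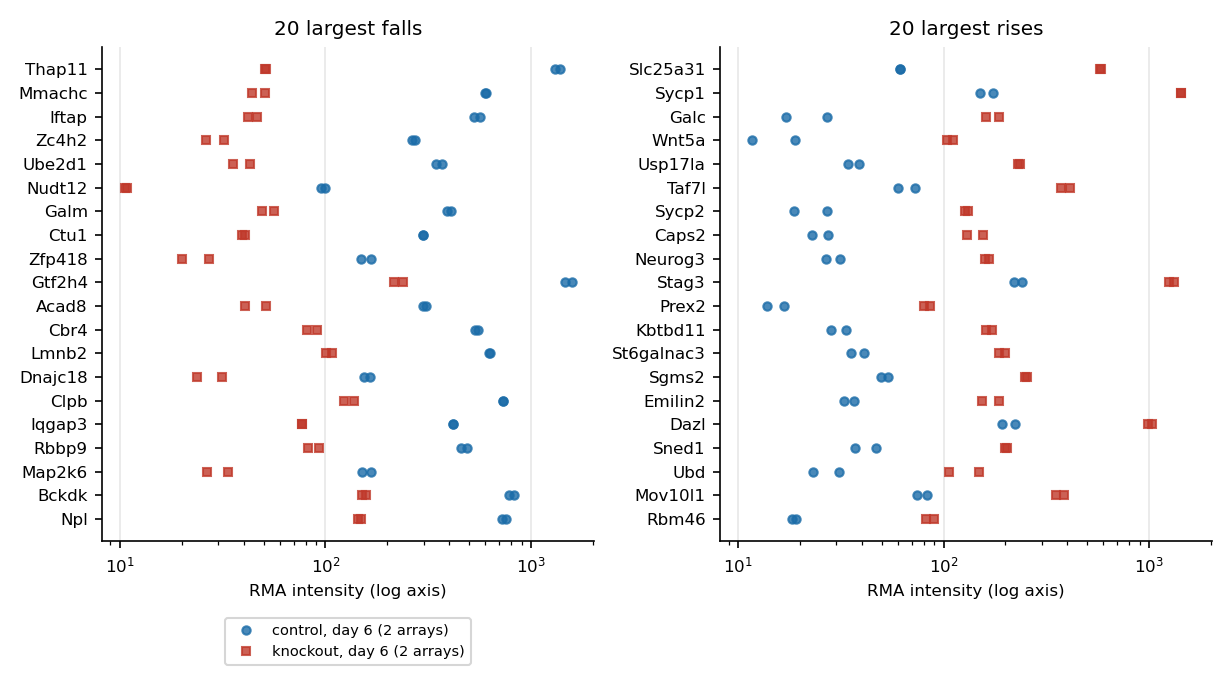
RMA intensities on a log axis of the 20 genes with the largest falls (left) and the 20 with the largest rises (right) on day 6, with circles for the 2 control arrays and squares for the 2 knockout arrays. The genes were chosen among those whose arrays of the 2 groups do not overlap, which holds for 65.1% of all genes tested. Thap11 goes from 1305 and 1382 to 50.6 and 51.5.

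The promoters of these genes were searched for the Ronin and ZNF143 element, spelled ACTACANNNCCC and read on both strands. The promoters were RefSeq sequences of GRCm38.p6 from 250 bases before to 50 bases after the start site, and 14369 of the 18194 genes had one. Where the letters before its end are TCCC, the element can overlap the E2F core TCCCGC. Of the 20 largest falls, 17 had a promoter in the table and 15 of these held the element. Thap11 and Lmnb2 had none in the 300 bases searched. A match in a promoter is a description of the sequence and does not show that Ronin bound there.

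A site of each of the 15 genes is shown because these genes fell most. Each is printed in the direction in which the element reads, with the element in capitals, and with its place in GRCm38.p6 and the strand it reads on.
Mmachc, chr4:116708389-116708418, plus strand: cagggctggACTACATTTCCCaagaagtaa
Iftap, chr2:101629023-101629052, minus strand: gcccaaagaACTACATTTCCCaggaatccg
Zc4h2, chrX:95658490-95658519, plus strand: gcctctagaACTACAACTCCCagaaggcca
Ube2d1, chr10:71285303-71285332, minus strand: gagcctgggACTACACTTCCCagtgtgcca
Ctu1, chr7:43671990-43672019, minus strand: tgccctgggACTACAATTCCCataaggcct
Zfp418, chr7:7171245-7171274, plus strand: gcagtaggaACTACATTACCCacaatgcca
Gtf2h4, chr17:35673760-35673789, minus strand: tagaagaggACTACAATTCCCaagatgcct
Acad8, chr9:26999567-26999596, minus strand: gcttaatggACTACAACTCCCagagtatca
Cbr4, chr8:61487655-61487684, plus strand: agagtaaggACTACAAGTCCCagaatgcaa
Clpb, chr7:101663625-101663654, minus strand: actaaacaaACTACATTTCCCcgagggctg
Iqgap3, chr3:88081932-88081961, plus strand: ctaagaggaACTACAAAACCCagggttccc
Rbbp9, chr2:144550861-144550890, minus strand: tatccaagaACTACAATTCCCagaagtccg
Map2k6, chr11:110399051-110399080, plus strand: tacaggagaACTACACTACCCagcaggcct
Bckdk, chr7:127904020-127904049, plus strand: tgtggtcaaACTACAACTCCCaggaggcac
Npl, chr1:153549775-153549804, minus strand: cgacgtggaACTACAACCCCCaggctcccc
The site of Mmachc is centred 18 bases before its start site and that of Clpb 111 bases before.

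The share of promoters with the element followed the size of the fall. Among genes at least 4-fold lower, 27 of 33 promoters held it, or 81.8% (95% Clopper-Pearson interval 64.5 to 93, which covers counting error only). Among genes 2- to 4-fold lower it was 50 of 116, or 43.1%, and among smaller falls 162 of 2091, or 7.75%. Genes that did not pass held it in 2.02% of promoters, all genes tested in 3.93% and all 32851 promoters of the table in 2.09%. On the rising side the share was 10.4% among genes 2- to 4-fold higher, with 19 of 182.

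Seen from the promoters, 564 tested genes held the element, and 42.4% of them fell while 23.2% rose. Without the element 14.5% fell and 17.3% rose. Promoters with 1 site had 39.8% of their genes lower, those with 2 sites 54.5% and those with 3 or more 66.7%, the last group holding only 6 genes. Genes with the element had higher intensities, with a median of the mean log2 intensity of 8.59 against 6.90 without it. Among the 9097 genes above the median intensity, a comparison chosen after seeing the data, 5.98% of promoters held the element, against 57.9% of those at least 2-fold lower and 13.5% of those at least 2-fold higher.

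Not all genes with the element fell. Of the 20 genes with the element that rose at least 2-fold, Fyco1, which links autophagosomes to motor proteins, went from 99.7 and 101 to 475 and 439 (2.18 ± 0.096). Cyb561d2, at 1.49 ± 0.074, and Slc38a9, a lysosomal amino acid sensor at 1.51 ± 0.14, were others. They were singled out after their values were seen.

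In the promoters of the 77 genes at least 2-fold lower with the element there were 96 distinct sites, 65 on the strand of the gene and 31 on the other. Strands were not counted in other genes, and a site shared by 2 genes was assigned to the one that fell more. The centres of the 96 sites lay at a median of 68 bases before the start site, and 58 lay in the 100 bases before it. In a separate count that took in other genes, the median position was -73.5 for the 96 sites and -74 for sites in other genes. The form of the site was much like that in other genes. The letter before CCC was T in 86.5% of these sites and in 85.3% of sites in other genes tested. Of the other motifs searched, the E2F core was in 31.5% of promoters of genes at least 2-fold lower and in 32.9% of all genes tested, and the CCAAT box in 39.6% and 42%. The GC box, GGGCGG, was in 44.3% against 57.5%, and among genes above the median intensity in 43.9% against 72.6%. The E-box, CACGTG, was in 6.04% against 10.3%.

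**Figure D3:**
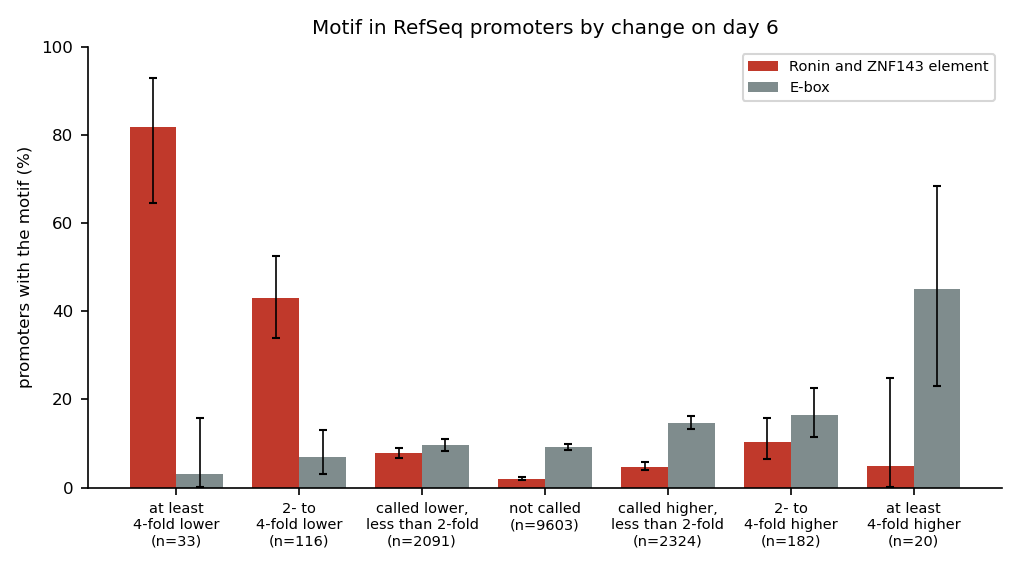
Share of RefSeq promoters in percent (y axis, with 95% Clopper-Pearson intervals as error bars) that hold the Ronin and ZNF143 element (red) or an E-box (grey), by size and direction of the day 6 difference (x axis, with the number of promoters). The element is in 81.8% of promoters of genes at least 4-fold lower and in 2.02% of those not past the threshold, while the E-box is in 45% of genes at least 4-fold higher.

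Several pairs of genes that start next to each other on opposite strands fell together. There were 963 such pairs with starts within 1000 bases and both genes tested. In 14 of them a member fell at least 2-fold, and its partner fell too in 8 (57.1%), at least 2-fold in 5. Among the other adjacent genes the partner fell in 22.3% of 274 pairs. The 5 pairs were Mmachc with Ccdc163, Acad8 with Thyn1, Uqcr10 with Zmat5, Poglut2 with Bivm, and Map3k10 with Zfp607b. Between the starts of 4 of them lay these bases, printed on the plus strand with each element in capitals. An element on the minus strand appears here as its reverse complement.
Acad8 and Thyn1, chr9:26999550-26999676, plus strand: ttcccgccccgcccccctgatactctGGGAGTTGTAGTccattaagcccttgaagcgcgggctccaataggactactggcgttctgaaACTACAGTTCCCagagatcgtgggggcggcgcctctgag
Map3k10 and Zfp607b, chr7:27674582-27674660, plus strand: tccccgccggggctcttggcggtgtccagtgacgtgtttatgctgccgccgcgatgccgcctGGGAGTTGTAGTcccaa
Poglut2 and Bivm, chr1:44118774-44118956, plus strand: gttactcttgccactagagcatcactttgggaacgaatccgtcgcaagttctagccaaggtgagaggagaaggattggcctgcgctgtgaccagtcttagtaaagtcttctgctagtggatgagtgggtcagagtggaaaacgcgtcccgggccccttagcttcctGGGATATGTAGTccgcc
Mmachc and Ccdc163, chr4:116708386-116708594, plus strand: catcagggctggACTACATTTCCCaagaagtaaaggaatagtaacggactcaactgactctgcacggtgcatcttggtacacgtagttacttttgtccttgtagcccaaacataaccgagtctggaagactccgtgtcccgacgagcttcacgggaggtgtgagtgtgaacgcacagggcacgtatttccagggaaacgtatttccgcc
Between Acad8 and Thyn1 there are 2 elements, 1 in each direction, and 1 in each of the other 3.

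The members of a pair fell by unequal amounts. Thyn1 went from 1814 and 1885 to 442 and 477 (-2.01 ± 0.060, shared probes), beside the -2.74 of Acad8. Ccdc163 went from 82.1 and 84.1 to 40.6 and 34.4 (-1.15 ± 0.11, shared probes), beside the -3.66 of Mmachc. Poglut2, an enzyme that puts glucose on proteins, fell by 2.26 (shared probes) and Bivm by 1.96. For Map3k10 none of its 3 other probe sets passed. Marchf5, a ubiquitin ligase of the mitochondrial outer membrane, went from 4344 and 4282 to 1319 and 1334 (-1.70 ± 0.053). Its neighbour Cpeb3 was at -0.13 ± 0.11 (limma adjusted p = 0.44), with the element in its promoter too, while 2 of its 3 other probe sets fell. In 3 of the 14 pairs the partner fell by less than 2-fold, in 1 it rose and in 5 it did not pass. Both promoters also held the element where the partners Invs of Erp44 (-0.36), Elmod3 of Retsat (0.006) and 1700003G18Rik of 1110004F10Rik (0.05) did not pass. Pus3 (shared probes) and its partner Ddx25 both fell, by 1.86 and 0.66, with no element in either promoter. Like Marchf5 and Cpeb3, these pairs were singled out after their values were seen.

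Zinc finger genes named Zfp with a number made up 17 of the 187 genes at least 2-fold lower (9.09%), against 1.85% of all genes tested. Many such genes encode KRAB zinc finger proteins, which silence repeats and other DNA. Of the 11 with a promoter in the table, 9 held the element, as did 53 of 274 over all Zfp genes tested. Counting changes of any size, 77 of the 336 Zfp genes tested fell and 76 rose. Zfp418 went from 166 and 148 to 20 and 27.2. Zfp111 (shared probes) went from 196 and 188 to 45.2 and 38.9 and Zfp317 from 102 and 101 to 27.2 and 20.1. The brightest of the 17, Zfp110, was at 2012 in controls and 802 in knockout cells and fell by 1.33 (shared probes). All but Zfp418 and Zfp607b were named after their values were seen.

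Groups of genes with a common function were described by lists drawn up with earlier results of these data known, so their counts are no independent evidence. They are read against the 17.2% of all genes that rose, the 15.3% that fell and a median log2 difference of -0.0013.

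Many genes of the mitochondrial ribosome fell, a few of them strongly. Of 77 mitochondrial ribosomal protein genes 35 fell, 2 rose and 40 did not pass, with a median of -0.13. Mrpl34 went from 2146 and 2204 to 525 and 519.6 (-2.06 ± 0.059), Mrpl24 from 3737 and 3801 to 1099 and 1054 (-1.81 ± 0.064, shared probes) and Mrpl54 from 743 and 726 to 262 and 261 (-1.49 ± 0.060). The other probe sets of Mrpl34 and Mrpl54 did not pass. Both genes at least 2-fold lower that had a promoter in the table, Mrpl34 and Mrpl24, held the element. Of the 28 lower members with a promoter, 4 held the element, beside 10.7% of all genes that fell. On day 3 the list had 21 of 77 members higher and 5 lower, where 13.3% and 10% of all genes tested were.

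Genes that keep and read mitochondrial DNA had 13 of 29 lower and 3 higher, and 6 to 8 lower when any 1 array of day 6 was left out. Tefm, an elongation factor of mitochondrial transcription, fell by 0.71. Of 42 protein import genes 16 fell (10 without control replicate 2), with Timm21, a subunit of the inner membrane translocase, from 451 and 466 to 196 and 193 (-1.24 ± 0.059). Respiratory complex I had 18 of 47 members lower (10 without knockout replicate 2) and 6 higher, none by 2-fold. In complexes II to V 9 of 54 fell (5 without control replicate 2 or knockout replicate 2, and 16 with trend and robust eBayes), yet 2 of these fell far. Uqcr10, a small subunit of complex III, went from 4157 and 4263 to 911 and 832 (-2.27 ± 0.067, shared probes). Cox7c, a subunit of complex IV, went from 415 and 422 to 116 and 91.0 (-2.03 ± 0.13, shared probes).

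Among genes of translation, charging enzymes of the cytosol and mitochondria showed mostly small falls and cytosolic ribosomal proteins almost none. Of 37 aminoacyl-tRNA synthetase genes 18 fell and 2 rose, and 9 fell without control replicate 2 or without either knockout array. Lars, the leucine enzyme, went from 4976 and 4676 to 2178 and 2141 (-1.16 ± 0.052), while the next, Yars2, fell by 0.45 (shared probes). Among 57 tRNA modification genes 21 fell and 9 rose, with large changes both ways. Beside Ctu1, the pseudouridine synthases Pus3 and Trub1 fell by 1.86 (shared probes) and 1.49 (other probe set not past the threshold). Trmt10a, a tRNA methyltransferase, rose from 668 and 688 to 2173 and 2175 (1.68 ± 0.057), and Elp6 of the Elongator complex rose by 1.20 (shared probes). Ctu2, the partner of Ctu1 in the thiolation enzyme, was at 0.02 ± 0.059. Of 42 cytosolic ribosomal protein genes 3 fell and 0 rose by the limma test, and 0 rose at an unadjusted p under 0.05.

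In central metabolism the serine and folate genes and glycolysis moved down. Of 20 serine and folate one-carbon genes 12 fell and 1 rose. Shmt2, the mitochondrial enzyme that takes a carbon from serine, went from 3401 and 3469 to 1433 and 1442 (-1.26 ± 0.052, shared probes). Cbs, which joins homocysteine to serine, fell by 1.11 (shared probes) and Ahcy, which clears S-adenosylhomocysteine, by 0.86. Of 21 glycolysis genes 13 fell and 2 rose, led by the lactate exporter gene Slc16a3 at -0.83, while Pfkfb3, which makes the activator of phosphofructokinase, rose by 0.87. Another probe set of Pfkfb3 did not pass. Of 23 genes of the citric acid cycle and pyruvate entry 11 fell and 4 rose, among them Mdh1 at -0.96 and Idh3a at -0.72 (both shared probes). Of the lower genes with a promoter, 1 of 10 for serine and folate, 1 of 13 for glycolysis and 1 of 10 for the citric acid cycle held the element, near the 10.7% of all genes that fell.

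Single genes of other machines fell far while the rest of the machine did not. Among 59 genes of RNA polymerases II and III and their basal factors 15 fell and 9 rose (16 rose against the mean of the 3 control groups), with Gtf2h4 and the snRNA activating subunit Snapc3 (-1.30 ± 0.053) at least 2-fold lower. For Snapc3 1 of 3 other probe sets fell too. Polr2a, the catalytic subunit of polymerase II, rose by 0.80, without its other probe set. Among 48 mitosis genes the spindle checkpoint kinase gene Bub1b went from 2099 and 2193 to 857 and 823 (-1.35 ± 0.056, shared probes), whereas Espl1, the separase gene, went up from 2313 on both control arrays to 4344 and 4322 (0.91 ± 0.064). The recombination gene Rad51b was the only one of 44 DNA repair genes to fall 2-fold, by 1.03, and its other probe set did not pass. Of these genes at least 2-fold lower, Gtf2h4, Snapc3, Bub1b and Rad51b all held the element.

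**Figure D4:**
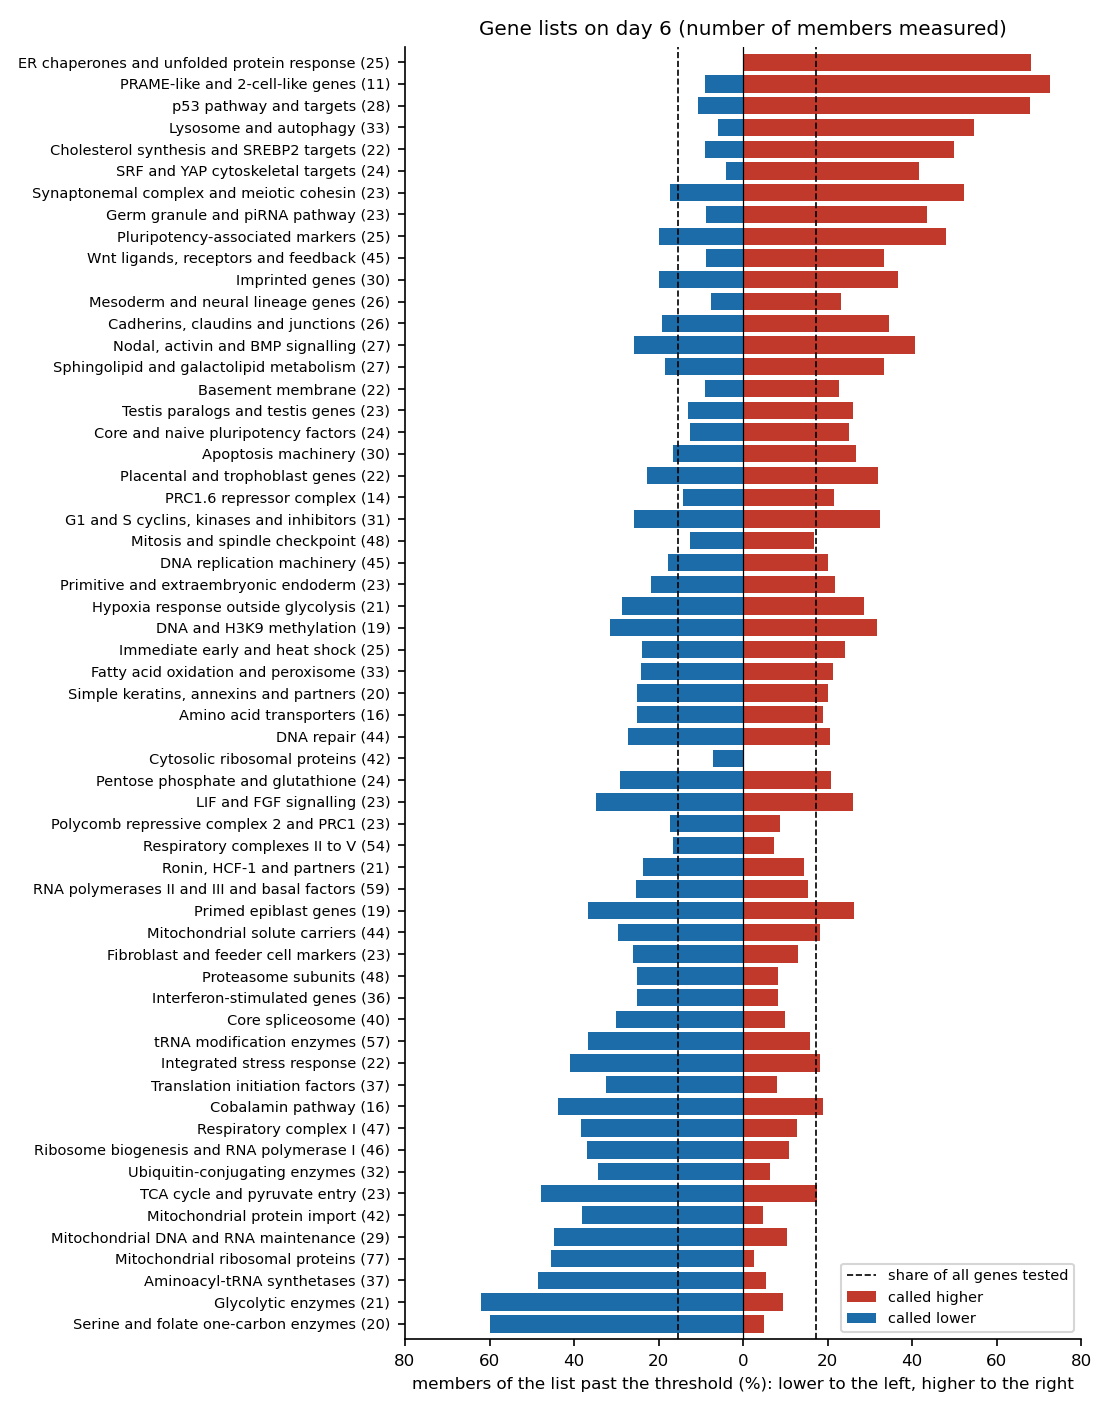
Share of each gene list's measured members in percent that rose (red, to the right) or fell (blue, to the left) on day 6, with the number measured in parentheses. Dashed lines mark the shares of all 18194 genes, 17.2% higher and 15.3% lower, and lists run from endoplasmic reticulum chaperones, 17 of 25 higher, to serine and folate enzymes, 12 of 20 lower.

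Slc25a31 and Sycp1, both genes of germ cells, had the largest rises. Slc25a31, a mitochondrial carrier of ADP and ATP in germ cells, read 61.7 and 61.4 on the control arrays and 584 and 577 on the knockout arrays (3.24 ± 0.088). Sycp1, which forms the transverse filaments of the synaptonemal complex, went from 173 and 150.4 to 1422 and 1427 (3.14 ± 0.12). Stag3, a cohesin subunit of meiosis, went from 241 and 221 to 1317 and 1255 (2.48 ± 0.11). In each of these genes both knockout arrays stood far above both controls. A lack of overlap was a condition of their choice, and 65.1% of all genes tested met it in either direction.

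Of 23 genes of the synaptonemal complex and meiotic cohesin 12 rose and 4 fell, 8 of them up at least 2-fold. Sycp2 went from 18.6 and 27.1 to 131 and 127, and Sycp3 from 486 and 514 to 1653 and 1674 (1.74 ± 0.065). Hormad1, which marks unpaired chromosome axes, rose by 1.59 (shared probes). Syce2, by far the brightest member at 4934 and 4939 in controls, was at 0.06 ± 0.045. Germ granule and piRNA genes had 10 of 23 higher and 2 lower. Dazl, an RNA-binding protein that licenses germ cells, went from 193 and 223 to 1028 and 984 (2.28 ± 0.075). Ddx4, the vasa helicase, went from 682 and 648 to 2323 and 2412 (1.83 ± 0.068), and Mov10l1, a helicase of piRNA making, from 83.5 and 74.6 to 353 and 385. Dppa3, a maternal factor also high in embryonic stem cells, fell by 0.62.

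Testis forms of general factors and other testis genes did not rise as a whole. Taf7l, a testis form of a TFIID subunit, went from 60.1 and 72.4 to 411 and 373 (2.57 ± 0.14) and Tex15 from 216 and 206 to 657 and 597 (1.57 ± 0.083). In that list 6 of 23 rose and 3 fell. Of 11 genes of the PRAME-like family and the 2-cell-like state 8 rose and 1 fell, with Usp17la from 34.4 and 38.7 to 235 and 231 and Tcstv1 from 11.9 and 13.1 to 43.7 and 49.6. The count of higher genes in that list was 3 when the dimmest 40% of genes were left out. PRC1.6, a complex that silences germline genes, had 3 of 14 list members higher and 2 lower, near the shares of all genes tested. Max, its DNA-binding partner protein, went from 288 and 363 to 192 and 200.2 (-0.72 ± 0.097), while its partner Mga was at 0.42 ± 0.075, a rise.

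E-boxes, spelled CACGTG and the same on both strands, were in the promoters of 8 of the 17 largest rises that had one in the table. The letters can overlap a CRE (TGACGTCA) by TG or CA. The other probe sets of St6galnac3, 1 of the 8 genes, did not pass. These 8 sites are shown because most belong to genes of germ cells, and the E-box is in capitals.
Slc25a31, chr3:40708766-40708795, plus strand: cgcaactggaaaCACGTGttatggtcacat
Sycp1, chr3:102936177-102936206, minus strand: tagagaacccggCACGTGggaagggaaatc
Taf7l, chrX:134476522-134476551, minus strand: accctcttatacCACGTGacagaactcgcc
Stag3, chr5:138280327-138280356, plus strand: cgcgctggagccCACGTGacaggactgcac
St6galnac3, chr3:153725213-153725242, minus strand: ctgcacggagggCACGTGactaggggcggg
Sgms2, chr3:131489142-131489171, minus strand: ggcccaggttagCACGTGaaatattgttgt
Mov10l1, chr15:88982744-88982765, plus strand: ccttCACGTGctaaccgccaac
Rbm46, chr3:82876500-82876529, minus strand: gtggggccactcCACGTGaggcacgctagg
Among all genes at least 4-fold higher 9 of 20 promoters held an E-box, or 45% (95% Clopper-Pearson interval 23.1 to 68.5). The share was 16.5% among genes 2- to 4-fold higher, 10.3% among all genes tested and 7.15% in all promoters. Of 9 germ granule genes with an E-box 5 rose, against 3 of 10 without, and of 6 synaptonemal complex genes with one 5 rose, against 6 of 14 without. Over all genes tested, 25.8% of those with an E-box rose and 16.6% of those without.

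Wnt5a, Neurog3 and Galc were also among the largest rises. Wnt5a, a secreted signal of cell polarity, went from 11.7 and 19 to 104 and 111 (2.85 ± 0.24), and 1 of its 3 other probe sets rose as well. Neurog3, a factor of endocrine and neural progenitors, went from 26.8 and 31.5 to 159.6 and 166 (2.49 ± 0.13), while its other probe set did not pass. Galc, a lysosomal enzyme of galactolipid breakdown, went from 27.2 and 17.1 to 161 and 185 (3.00 ± 0.21). Neither of the 2 other probe sets of Galc passed.

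Chaperones of the endoplasmic reticulum and genes of the unfolded protein response had 17 of 25 members higher and 0 lower by the limma test, also 0 lower at an unadjusted p under 0.05, with a median of 0.24. When a gene's probe sets were averaged, the count of higher members was 11. It was also smaller without control replicate 2 or without knockout replicate 1. Derl3, which helps export misfolded proteins, went from 172 and 176 to 514 and 506 (1.55 ± 0.079, shared probes). Dnajb9, a cochaperone that restrains the sensor IRE1, went from 456 and 448 to 999 and 959.7 (1.11 ± 0.055), and Calr, the calreticulin gene, from 7470.2 and 7549.8 to 10758 and 10763 (0.52 ± 0.047, shared probes). The brightest members that did not pass, Canx and Hsp90b1, were at 0.11 and 0.10 (both shared probes). Another probe set of Canx passed in the other direction. Other genes of the same compartment and outside the list, Pdia5 (-2.30 ± 0.080) and Erp44 (-1.45 ± 0.063), fell and both held the Ronin element. They were named after their values were seen.

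Of 33 genes of lysosomes and autophagy 18 rose and 2 fell, while 5 were higher and 11 lower on day 3. Gabarap, which coats autophagosomes, went from 1275 and 1360.2 to 2760.1 and 2731 (1.06 ± 0.065). The lysosomal calcium channel gene Mcoln1 rose by 0.71 and the mannosidase gene Man2b1 by 0.70 (both shared probes). Of the 11 list members with an E-box in the promoter 8 rose, and of the 15 without one 7 rose. Among sphingolipid genes Asah1, the lysosomal ceramidase, went from 1811 and 1829 to 3300.4 and 3319 (0.86 ± 0.053), and Hexa, a subunit of a lysosomal hexosaminidase, rose by 0.80 (shared probes).

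Targets of p53 had 19 of 28 members higher and 3 lower, with a median of 0.34, and on day 3 only 2 were higher and 5 lower. Ddit4l, a brake on mTOR signalling, rose by 1.15 ± 0.087, as did both of its other probe sets. Plk2, a kinase of centriole copying, rose by 0.79 (other probe set not past the threshold), and the proapoptotic gene Pmaip1 by 0.57. Cdkn1a, the gene of the cell cycle inhibitor p21, read 1183 and 1215 in controls and 1201 and 1229 in knockout cells (0.02 ± 0.081, limma adjusted p = 0.89). Genes of cholesterol synthesis had 11 of 22 higher and 2 lower. Insig1, a sensor that holds back the pathway, rose by 0.65, and Ebp, a sterol isomerase, went from 1493 and 1501 to 795 and 780.4 (-0.93 ± 0.058).

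Genes of the Nodal and BMP pathways changed in both directions, with 11 of 27 list members higher and 7 lower. The ligand gene Bmp4 went from 1253 and 1241 to 402 and 365 (-1.70 ± 0.065). Lefty2 and Lefty1, which encode inhibitors of Nodal, went from 728 and 722 to 255 and 268 (-1.47 ± 0.060) and from 1543 and 1683 to 926 and 943 (-0.79 ± 0.069). Fst, the gene of the activin antagonist follistatin, went from 97.5 and 130.5 to 323 and 349 (1.57 ± 0.13). The Id genes, which encode helix-loop-helix inhibitors known as BMP targets, were all higher, with Id1 at 1.16 and Id2 at 1.24 (both shared probes), Id3 at 1.17 and Id4 at 1.40. Id2 alone went from 1581 and 1545 to 3687 and 3680.2.

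Wnt genes had 15 of 45 higher and 4 lower, and 8 higher when a gene's probe sets were averaged. Fewer were also higher without control replicate 1, control replicate 2 or knockout replicate 2. After Wnt5a came the receptor gene Fzd6, from 138 on both control arrays to 375 and 317 (1.32 ± 0.095), whose 2 other probe sets did not pass, and the antagonist gene Sfrp1 at 0.63. Targets of SRF and YAP, which read tension of the cytoskeleton, had 10 of 24 higher and 1 lower, and 17 higher against the mean of the 3 control groups. Myl9, a myosin light chain, went from 233 and 208 to 552 and 523 (1.29 ± 0.10). The matrix protein genes Ccn1 (shared probes) and Ccn2 rose by 1.13 and 1.04.

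Among 24 core pluripotency factors 6 rose and 3 fell, none by 2-fold. Nanog read 5411 and 5725 in controls and 5359 and 5452 in knockout cells (-0.04 ± 0.052), and Sox2 was at 0.09 ± 0.083. Another list, of 25 pluripotency-associated markers, had 12 higher and 5 lower, with Jam2, an adhesion protein, at 0.74, Gdf3, a growth factor of the TGF-beta family, at 0.59 and Lefty2 the only one at least 2-fold lower. Nr5a2 rose by 0.58 and Sall4 by 0.41, though none of their other probe sets passed. Single factors of other lineages were higher from low levels. Sox1, an early neural factor, went from 40.3 and 37.9 to 124 and 116 (1.62 ± 0.097, other probe set not past the threshold) and Foxa2, a factor of endoderm, from 57.4 and 53.1 to 113 and 110.2 (1.02 ± 0.14). Gata3, of trophoblast, went from 38 and 33.8 to 80.5 and 127 (1.50 ± 0.25), with knockout arrays that lay apart. In their lists 6 of 26 mesoderm and neural, 5 of 23 endoderm and 7 of 22 trophoblast genes rose, with 2, 5 and 5 lower. The medians of the lists were 0.02, -0.05 and 0.05, and 1 endoderm gene rose and 1 fell at least 2-fold. Against the mean of the 3 control groups 11 trophoblast genes rose.

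Imprinted genes, of which 1 parental copy is normally silent, had 11 of 30 higher and 6 lower. Grb10, an adaptor that dampens insulin signalling, went from 2364 and 2495 to 507 and 502 (-2.27 ± 0.049, shared probes). Plagl1, a zinc finger regulator of other imprinted genes, went the other way, from 1009 and 941 to 3575 and 3472 (1.85 ± 0.055, shared probes). Igf2, a growth factor gene, rose by 1.01, Meg3, a long RNA, by 0.77 (shared probes), and Phlda2, which restrains placental growth, fell by 0.75. Of the 10 other probe sets of Meg3, 9 rose, and 1 of 2 moved the same way for Grb10 and for Plagl1. The other probe set of Igf2 did not pass.

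Most of the large differences had begun before day 6. Of the 187 genes at least 2-fold lower, 84 were already lower on day 1.5 and 161 on day 3, where 3.98% and 10% of all genes tested were lower (9.91% and 23.4% changed in either direction). Of the 266 at least 2-fold higher, 80 were higher on day 1.5 and 201 on day 3, where 5.93% and 13.3% of all genes were. Day by day the median of the falling genes was -0.28, -0.81 and -1.34, and that of the rising genes 0.19, 0.66 and 1.30. The choice by size on day 6 favours the largest medians on that day. Of the falling genes 17 had not fallen on either earlier day, and of the rising genes 59 had not risen. Among these, 2 and 8 had passed in the opposite direction. The element was in 28 of 66 promoters (42.4%) of falling genes already lower on day 1.5, in 47 of 72 (65.3%) of those lower on day 3 but not day 1.5, and in 2 of 11 (18.2%) of those lower on neither day.

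Several large rises of day 6 were already present on day 1.5. Ubd, a ubiquitin-like modifier, differed by 3.53 on day 1.5, 1.56 on day 3 and 2.23 on day 6. For Galc the differences were 2.58, 2.13 and 3.00, for Caps2 1.96, 1.80 and 2.50, and for Prex2 1.82, 1.66 and 2.44. The other probe set of Prex2 did not pass. Gt(ROSA)26Sor, the transcript of the Rosa26 locus, was at 2.18, 1.73 and 2.01, and was named after its values were seen. The part that differences between the lines had in these genes was not tested.

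**Figure D5:**
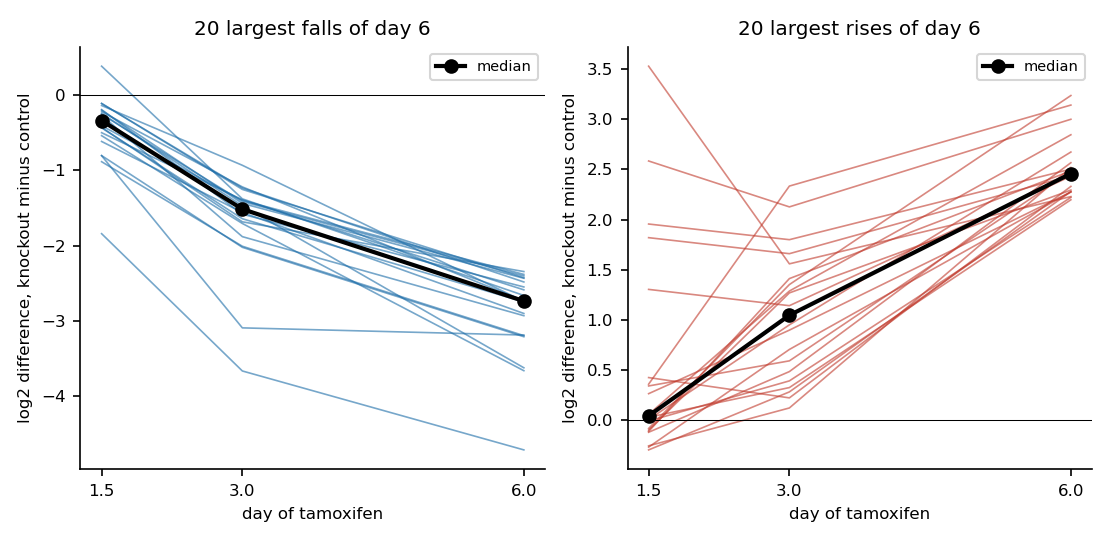
Log2 difference between knockout and control (y axis) on days 1.5, 3 and 6 of tamoxifen (x axis) for the 20 genes with the largest falls (left) and rises (right) of day 6, with 1 line per gene and the median in black. The falls deepened from day to day in all 20 genes, though the choice by the day 6 difference favours the deepest value on that day. Ubd and Galc among the rises stood at 3.53 and 2.58 on day 1.5.

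The difference between knockout and control changed from day 3 to day 6 in 2991 genes (16.4%), upward in 1399 (7.69%) and downward in 1592 (8.75%). Between day 1.5 and day 6 it changed in 3516 (19.3%), upward in 1695 (9.32%). Days 3 and 6 share no arrays. Sycp3 moved most, from -0.90 on day 3 to 1.74 on day 6 (change 2.64 ± 0.092). Sycp2 went from 0.12 to 2.52 and Taf7l from 0.49 to 2.57. Among the falls, Mmachc went from -1.71 to -3.66 and Gtf2h4 from -0.93 to -2.74. Of the genes at least 2-fold changed on day 6, the difference had grown since day 3 in 169 of the 266 higher and in 132 of the 187 lower. Choice by the day 6 difference favours such growth. Of all genes that rose or fell on day 6, the difference had grown in 1059 of 3129 and in 1084 of 2777.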

How the data were processed

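RNA of 12 samples was read on Affymetrix whole-genome mouse expression arrays, and the 4 of day 6 were compared here. The deposited values are intensities on a linear scale. Per the submitters' processing notes the authors used RMA (version not given in the sources used here). This method corrects background, equalises the arrays' distributions and summarises probes, so shared shifts of all genes are removed. From these values log2 was taken with no added constant. For each of 18194 genes with a single symbol in the platform annotation the brightest probe set over the 12 arrays was used, with no filter on dim genes. Probe sets whose names end in _s_at, _x_at or _a_at are called shared probes.

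Group means were fitted over the 12 arrays with limma 3.58.1 in R 4.3.3 (eBayes, 6 residual and 3.04 prior degrees of freedom), with Benjamini-Hochberg adjustment at 0.05. The test was checked on simulated data with independent noise on each array, which cannot show whether real replicate arrays share errors. The number of arrays limits the precision. Named genes were the 20 largest rises and falls of day 6 with arrays that do not overlap, up to 5 called and the 2 brightest uncalled members of each of 59 lists, 6 genes per direction for the change from day 3, both members of divergent pairs at least 2-fold lower, and 7 fixed genes (Thap11, Hcfc1, Mmachc, Pou5f1, Nanog, Sox2, Cdkn1a), leaving out clone and model names. Genes outside this rule are marked as named after their values were seen. Members, lists and motifs were chosen with earlier results of these data known. Replicate numbers did not pair the samples. Over 15 pairs of groups the deviations of same-numbered arrays correlated between -0.057 and 0.173, above 0.1 in 1. Promoters were RefSeq sequences matched by gene ID. Plots were drawn with matplotlib 3.10.9.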

Additional observations from a re-analysis of the deposited data

Results flagged for a closer look

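The knockout effect differed between days in many genes by the limma test of the difference itself. Between day 3 and day 6 it changed in 2991 genes and between day 1.5 and day 6 in 3516. The largest upward changes since day 3 were in Sycp3 (2.64), Sycp2 (2.40), Pdlim4 (2.12), St6galnac3 (2.11), Taf7l (2.08) and Emilin2 (2.00), on the log2 scale. For St6galnac3 no other probe set passed on day 6. The largest downward changes were in Iftap (-2.15), Mmachc (-1.96), Gbp2 (-1.95), Gtf2h4 (-1.81), Nxf3 (-1.77) and Anxa1 (-1.61). Outside the named genes, 728 of 9160 probe sets with no gene symbol (7.95%) passed the test on day 6, 37 of them at least 2-fold higher and 25 at least 2-fold lower.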

How the results depend on the processing

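The 266 and 187 genes changed at least 2-fold kept their direction and call in each alternative that measured them, except 3 of the 266 higher genes when a gene's probe sets were averaged. That setting gave 175 genes at least 2-fold higher. With 1 array of day 6 left out, 1883 to 1983 genes changed their difference between day 3 and day 6, fewer than the 2991 with all arrays. The share of promoters with the element among genes at least 2-fold lower was 51.7%, against 10.1% for a stricter element with ATT in its middle and 10.7% among genes called lower at any size. Over all genes tested the shares were 3.93% for the element and 0.543% for the stricter one. Of 436 named genes, 4 turned direction against the mean of the 3 control groups, Krt19 (0.57), Krt8 (1.12), Nes (0.22) and Sox7 (0.47). With averaged probe sets Higd1a (0.32) and Xaf1 (0.34) turned. The causes were not tested. Of the 315 named genes past the threshold, 41 lost that in at least 1 alternative. With 1 array of day 6 left out, 4314 to 4524 genes passed on day 6. With the replicate number as a block 5821 genes passed in place of 5906, and the numbers pair no samples by the check. All counts over all genes other than those given here stayed within 1.5 times under the other settings, which were only the 4 arrays of day 6, the mean of the 3 control groups, trend and robust eBayes, no dim genes, median centring, quantile normalization and log2(intensity + 16).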
